A study of Danio rerio with 6 samples.

Results

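The genes described here are linked to restraint of the cell division cycle or to exit from it. They are 10 zebrafish genes taken by name: the Cdk inhibitor genes cdkn1a, cdkn1ba, cdkn1bb and cdkn1ca, the retinoblastoma family genes rb1 and rbl2, the antiproliferative genes btg1 and btg2, and the cyclin G genes ccng1 and ccng2. All 10 were found among the 34289 genes counted, by symbol or base name together with the chromosome. They were followed in osteoblasts, the bone-forming cells, of regenerating zebrafish scales, which were sorted into a Venus-hGeminin-positive and a Venus-hGeminin-negative gate with 3 RNA sequencing libraries each.

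Both groups came from fish that carried the same pair of transgenes, osx:H2A-mCherry and osx:Venus-hGeminin. Both are driven by osterix (osx, also named sp7) regulatory sequence, so every sorted cell had to express the mCherry reporter. The Venus reporter is fused to the part of geminin that targets it for destruction in G1, and it builds up in S, G2 and M phase, so a cell without it may be in G1, at rest or out of the cycle. Regenerating scales were collected on day 4 after about 50 scales had been plucked from each side, 3 to 5 fish were pooled per sample, and the tissue was digested for 1 h at 37 °C. The labels give neither the age nor the strain of the fish. They call the Geminin-positive cells those with high Erk activity, whereas the series' own design text states that the reporter and Erk activity run in opposite directions. The groups are therefore named by their gate. No label says that replicates came from separate days or animals, so p-values measure the spread between these libraries.

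A cell leaves the division cycle when cyclin-dependent kinases (Cdks) are held in check. Proteins of the Cip/Kip family (p21, p27 and p57, the products of the cdkn1 genes) bind cyclin-Cdk complexes and block them. Unphosphorylated retinoblastoma proteins then keep E2F factors from switching on S phase genes. Btg proteins recruit the Ccr4-Not deadenylase to shorten the tails of mRNAs, and cyclin G proteins, unlike classical cyclins, are linked in mammals to arrest. In bone, exit from the cycle accompanies the maturation of osteoblasts.

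Levels are given in CPM, the count of a gene scaled to the size of its library, after TMM scaling; this scaling aligns the bulk of genes between libraries. Fold changes are Geminin-positive over Geminin-negative on the log2 scale, from edgeR's quasi-likelihood test over 12855 genes. A gene passed at an adjusted p (Benjamini-Hochberg, over all genes) under 0.05. Total counts were 16482720 to 19087246 in the Geminin-positive and 15854710 to 34472612 in the Geminin-negative libraries. The gate was visible in gmnn, the geminin gene, at 1516, 1633 and 1518 CPM in the Geminin-positive against 426, 365 and 401 CPM in the Geminin-negative libraries (edgeR adjusted p = 0.0106). The Venus-hGeminin transgene holds a part of geminin, and whether its reads entered the gmnn row was not tested. The osteoblast gene sp7 was present in all 6 libraries, at 150 to 272 CPM in the Geminin-positive and 72.4 to 138 CPM in the Geminin-negative ones. None of the 13 matched osteoblast markers was at 0 in a whole group, but bglap was nearly absent and not tested. It had 0, 1 and 1 counts in the Geminin-positive and 1, 9 and 1 counts in the Geminin-negative libraries. The 13 markers together held 26.9% to 40.1% of a library's counts in the Geminin-positive and 12.9% to 21.3% in the Geminin-negative libraries. The collagen gene col1a2 alone had a mean of 124600 CPM in the Geminin-positive and 28140 CPM in the Geminin-negative libraries. Of 12 tested markers 7 were above and 5 below 0 in log2 fold change, among the latter spp1 (-0.71) and col10a1a (-0.64). With edgeR 2 passed, the collagen genes col1a1a and col1a1b, both higher (DESeq2 and limma-voom called 4 each, all higher). Leukocyte markers stood apart: their summed level was 102 to 230 CPM in the Geminin-positive and 2230 to 3160 CPM in the Geminin-negative libraries.

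None of the 10 genes passed the test with edgeR, whereas 0.607% of all genes tested did. At an unadjusted p under 0.05 there was 1 of the 10, against 9.4% of all genes. That gene was ccng2, lower in the Geminin-positive libraries. DESeq2 called the same gene, at a share of 4.89% over all genes tested, and limma-voom called 0, at a share of 0.755%. Of the 10 log2 fold changes 5 were above and 5 below 0. Their median was -0.01, and the median of all genes tested was also -0.01. Their summed level was 1700 to 2360 CPM in the Geminin-positive and 1660 to 2220 CPM in the Geminin-negative libraries, so the groups overlapped. In 1 gene, again ccng2, the groups did not overlap, against 18.4% of all genes in either direction and 10.3% in the direction of ccng2. RNA of a sorted population was measured, so a smaller share of cells with a transcript and less transcript per cell cannot be told apart.

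**Figure D1:**
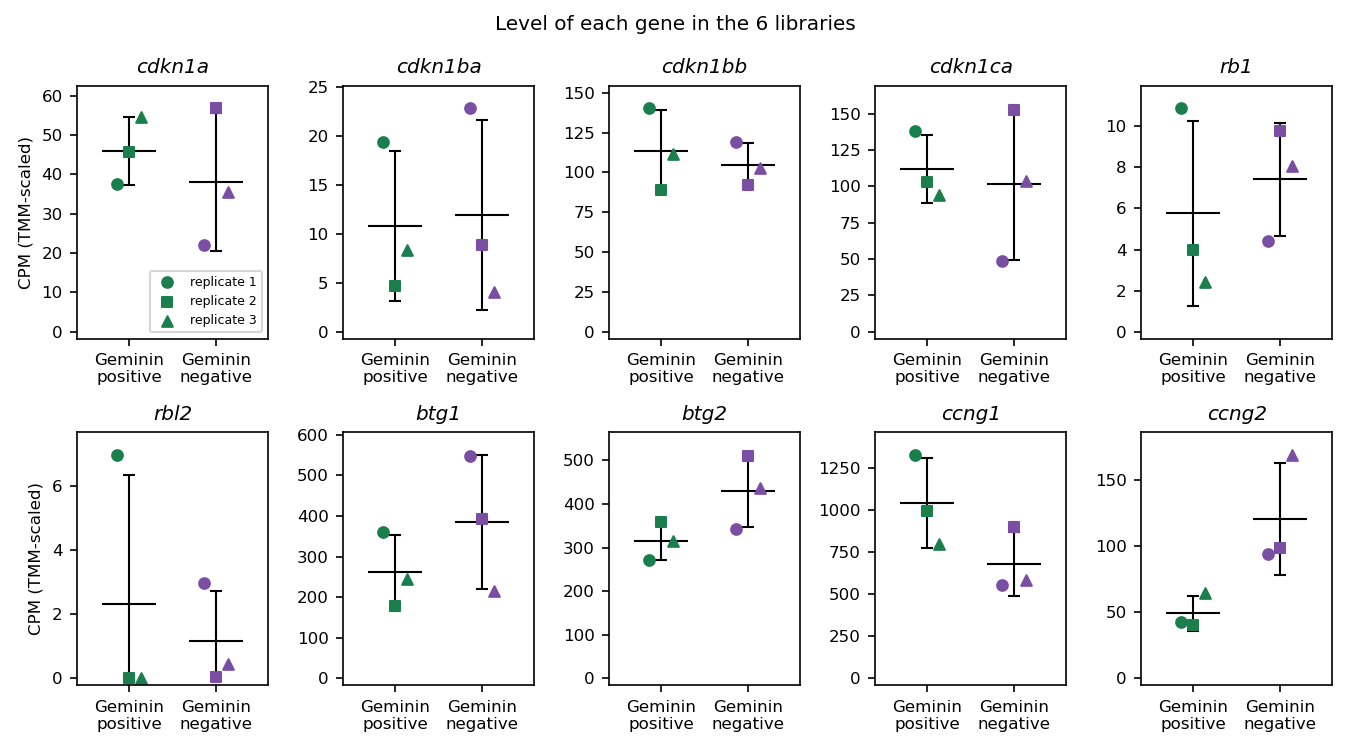
TMM-scaled CPM of each of the 10 genes (y axis, linear, own scale per panel) in the 3 Geminin-positive (left, green) and 3 Geminin-negative (right, purple) libraries, with the mean and SD as black bars, the SD cut at 0. The groups overlap in every panel but that of ccng2, where the Geminin-positive libraries sit at 40.7 to 64.6 CPM and the Geminin-negative ones at 93.9 to 169 CPM.

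The 10 genes differed widely in level. Per kb of exon, ccng1 was the most abundant at 431 ± 111 CPM per kb in the Geminin-positive and 281 ± 78.6 in the Geminin-negative libraries (SD, n = 3 each), above 98.7% of the genes tested. The genes btg2, btg1, cdkn1ca, cdkn1bb, ccng2 and cdkn1a followed, with means over the 6 libraries of 110, 89.1, 68.2, 52.6, 35.1 and 34.4 CPM per kb. From btg2 to cdkn1a each gene overlapped its neighbour in this order across libraries, whereas ccng1 lay above all of them in every library. The remaining genes were scarce: cdkn1ba had a mean of 4.83, rb1 1.76 and rbl2 0.24 CPM per kb. The rbl2 mean stood above only 1.87% of the genes tested.

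Among the Cip/Kip inhibitors, none was shown to differ between the gates, and the 4 together had 335, 243 and 268 CPM in the Geminin-positive against 213, 311 and 246 CPM in the Geminin-negative libraries. The p21 gene cdkn1a (ENSDARG00000076554, danRer10 chromosome 22, 565659 to 570089) encodes an inhibitor of the Cdks that drive entry into S phase. It had 37.5, 45.8 and 54.5 CPM in the Geminin-positive against 21.9, 56.8 and 35.4 CPM in the Geminin-negative libraries. The Geminin-negative libraries held both the highest and the lowest value. Its log2 fold change was 0.27 with a 95% interval of -0.68 to 1.23 (SE 0.42, edgeR adjusted p = 1.00). Leaving out Geminin-negative replicate 2 gave 0.66, leaving out Geminin-negative replicate 1 gave 0.0046, and scaling by library size alone gave -0.17.

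Zebrafish have a pair of p27 genes, and one was far more abundant than the other. The copy cdkn1bb (ENSDARG00000054271, chromosome 25, 2191029 to 2195953) had 140, 88.9 and 112 CPM in the Geminin-positive against 119, 92.4 and 103 CPM in the Geminin-negative libraries. These values lay close together in both gates, and their coefficient of variation (SD over mean) of 0.129 in the Geminin-negative libraries was low: 9.07% of the genes at or above 10 CPM had a lower one. Its log2 fold change was 0.12, with a 95% interval of -0.51 to 0.74 (SE 0.28, edgeR adjusted p = 1.00), and it was -0.34 with scaling by library size alone. Of the 10 intervals it was the 1 that stayed within 1 log2 unit on both sides.

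The copy cdkn1ba (ENSDARG00000029018, chromosome 4, 18603767 to 18606549) had 19.4, 4.69 and 8.34 CPM in the Geminin-positive against 22.9, 8.93 and 4.05 CPM in the Geminin-negative libraries. Replicate 1 was highest in both gates. A log2 fold change of -0.14 came with a wide interval of -2.20 to 1.91, and it turned with the library left out, between -0.87 without Geminin-positive replicate 1 and 0.75 without Geminin-negative replicate 1. Within a library, cdkn1bb exceeded cdkn1ba per kb by 8.19, 21.5 and 15.2 times in the Geminin-positive and by 5.93, 11.8 and 28.8 times in the Geminin-negative libraries. This ratio of counts does not depend on scaling, and it did not separate the gates (exact two-sided permutation p = 0.9). How reads shared between the copies were counted is not given in the sources used here.

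Of the p57 genes, the copy cdkn1ca (ENSDARG00000010878, chromosome 7, 48390888 to 48394280) was about as abundant as cdkn1bb. It had 138, 103 and 94.0 CPM in the Geminin-positive against 48.5, 153 and 104 CPM in the Geminin-negative libraries. As with cdkn1a, the Geminin-negative libraries held both extremes, in the same replicates. The interval of its log2 fold change of 0.14 was -0.80 to 1.08 (SE 0.41, edgeR adjusted p = 1.00). It was -0.19 without Geminin-negative replicate 1 and -0.28 with scaling by library size alone. The other p57 copy, cdkn1cb, is not among the 10 and was counted with the other Cdk inhibitor genes below. Its levels were 5.02, 11.3 and 9.84 CPM in the Geminin-positive against 7.72, 10.1 and 1.89 CPM in the Geminin-negative libraries. The log2 fold change of cdkn1cb was 0.41, with an interval of -1.95 to 2.76.

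The pocket protein genes were expressed at low levels. The retinoblastoma gene rb1 (ENSDARG00000006782, chromosome 21, 22924130 to 22980873) encodes the protein that binds activating E2F factors. It had 10.9, 3.97 and 2.44 CPM in the Geminin-positive against 4.4, 9.78 and 8.05 CPM in the Geminin-negative libraries, on 39 to 356 counts. The groups overlapped, the highest value being that of Geminin-positive replicate 1. Its log2 fold change was -0.36, with an interval of -2.91 to 2.18 (edgeR adjusted p = 1.00), and it was -1.20 without that library.

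The p130 gene rbl2 (ENSDARG00000045636, chromosome 25, 35506531 to 35539644) encodes the pocket protein that in mammals prevails in resting cells. It had 110, 0 and 0 counts in the Geminin-positive against 58, 2 and 10 counts in the Geminin-negative libraries. Most rbl2 reads of each gate came from its replicate 1. That replicate also had the most genes above 0 counts in each gate. Such genes numbered 15840, 12284 and 13035 in the Geminin-positive and 17875, 13829 and 11977 in the Geminin-negative libraries. Whether this bears on rbl2 was not tested. A count of 0 allowed up to 0.216 CPM in Geminin-positive replicate 2 and 0.188 CPM in Geminin-positive replicate 3, limits that cover counting error only. The fitted log2 fold change of 1.01 had an interval of -5.28 to 7.30, and without Geminin-positive replicate 1 it was -7.64 (edgeR adjusted p = 0.581), so the spread between these libraries left no direction for rbl2.

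The Btg genes were abundant and had lower means in the Geminin-positive libraries, without passing the test. Their sum was 631, 537 and 560 CPM in the Geminin-positive against 889, 902 and 652 CPM in the Geminin-negative libraries. Each Geminin-positive sum was below each Geminin-negative one, but the 2 genes differed in which library was extreme. Sums were also computed for the Cip/Kip, pocket protein and cyclin G genes, and those overlapped between the gates. Among single genes tested, 18.4% showed no overlap in either direction and 10.3% in this direction. The gene btg2 (ENSDARG00000020298, chromosome 22, 756789 to 760665), also an early response gene in mammals, had 271, 359 and 314 CPM in the Geminin-positive against 343, 509 and 436 CPM in the Geminin-negative libraries. Geminin-positive replicate 2 lay above Geminin-negative replicate 1, and the other libraries kept apart. For btg2 the log2 fold change was -0.45, with an interval of -1.01 to 0.11 (SE 0.25, unadjusted p = 0.104, edgeR adjusted p = 0.738). It lay between -0.58 and -0.33 as each library was left out, and it was -0.93 with scaling by library size alone (edgeR adjusted p = 0.0973). The row of btg2 overlaps that of cry3b on the other strand, which had 26 to 163 counts in the Geminin-positive and 134 to 307 counts in the Geminin-negative libraries. The counts of btg2 were 4261 to 5014 in the Geminin-positive and 6704 to 18528 in the Geminin-negative libraries.

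The gene btg1 (ENSDARG00000027249, chromosome 4, 16547197 to 16556109) had 360, 178 and 245 CPM in the Geminin-positive against 546, 393 and 216 CPM in the Geminin-negative libraries. Geminin-negative replicate 3 fell inside the range of the Geminin-positive libraries. For btg1 the log2 fold change was -0.56, with an interval of -1.45 to 0.33 (SE 0.39, unadjusted p = 0.188, edgeR adjusted p = 0.909). It was -0.21 without Geminin-negative replicate 1 and -0.99 with scaling by library size alone. The ratio of btg1 to btg2 per kb was 1.25, 0.466 and 0.731 in the Geminin-positive against 1.49, 0.722 and 0.463 in the Geminin-negative libraries, so the balance of the pair varied among replicates in both gates (exact two-sided permutation p = 1).

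The cyclin G genes had fold changes of opposite sign. The gene ccng2 (ENSDARG00000017602, chromosome 21, 5693389 to 5700642) encodes a cyclin that in mammals is raised in cells that stop dividing and is induced by FoxO factors. It had 42.9, 40.7 and 64.6 CPM in the Geminin-positive against 93.9, 98.4 and 169 CPM in the Geminin-negative libraries. The groups did not overlap, and replicate 3 was highest in both. The mean was 49.4 ± 13.2 CPM in the Geminin-positive and 120 ± 42.1 CPM in the Geminin-negative libraries (SD, n = 3 each). The log2 fold change of -1.29 had an interval of -2.08 to -0.49 (SE 0.35, unadjusted p = 0.00544), which is 2.44-fold lower with bounds of 1.41 and 4.22. It ranked 366 of 12855 genes by p and did not pass after adjustment (edgeR adjusted p = 0.191). DESeq2 gave the same size, -1.29, and called it (adjusted p = 0.0302). Without 1 library it lay between -1.52 and -1.0, the weakest value being that without Geminin-negative replicate 3, and the adjusted p over all 13 alternatives ran from 0.0302 to 0.54. The row of si:ch1073-170h8.3 overlaps that of ccng2 on the other strand. It had 170, 48 and 3 counts in the Geminin-positive against 21, 177 and 5 in the Geminin-negative libraries. The counts of ccng2 were 675, 564 and 1031 in the Geminin-positive against 1835, 3584 and 3755 in the Geminin-negative libraries.

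The gene ccng1 (ENSDARG00000076667, chromosome 14, 21831851 to 21842968), whose product in mammals binds the phosphatase PP2A, was on average higher in the Geminin-positive libraries without passing the test. It had 1331, 997 and 802 CPM in the Geminin-positive against 557, 900 and 586 CPM in the Geminin-negative libraries. Geminin-negative replicate 2 lay inside the range of the Geminin-positive libraries. The log2 fold change was 0.62, with an interval of -0.04 to 1.27 (SE 0.29, unadjusted p = 0.0633, edgeR adjusted p = 0.588). It was positive in all 13 alternatives, at 0.18 with scaling by library size alone.

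The ratio of ccng1 to ccng2 per kb, which no scaling can change, was 31.0, 24.5 and 12.4 in the Geminin-positive against 5.92, 9.13 and 3.46 in the Geminin-negative libraries. The groups did not overlap, and the ratio was 3.69 times as high in the Geminin-positive libraries (geometric means). With 3 against 3 libraries an exact two-sided permutation test cannot go below 0.1, which is the value it gave (0.3 after Benjamini-Hochberg adjustment over the 3 ratios computed). These 3 pairs were chosen after the values of the genes had been seen.

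**Figure D2:**
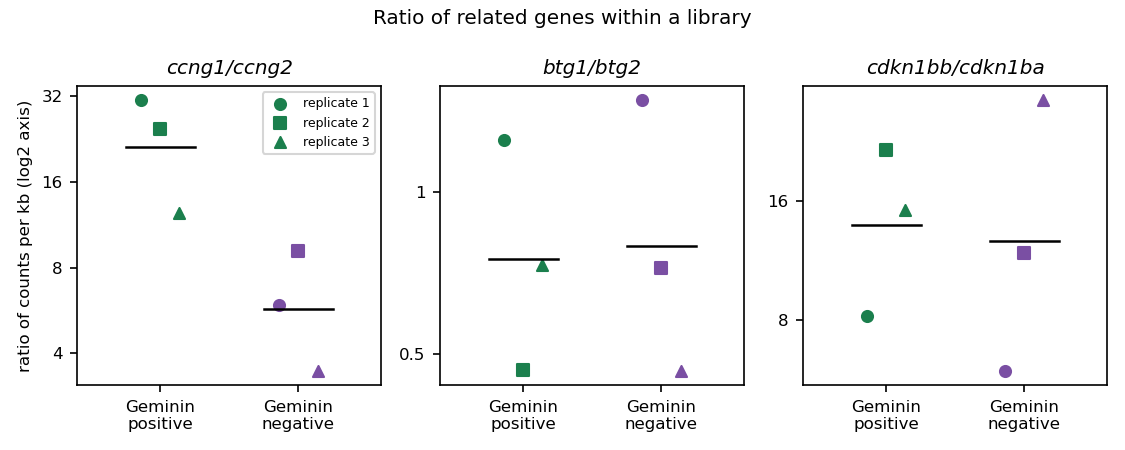
Ratio of counts per kb of 2 related genes within each library (y axis, log2 scale), in the Geminin-positive (left, green) and Geminin-negative (right, purple) libraries, with the geometric mean as a line. The ccng1/ccng2 ratio sits at 12.4 to 31.0 in the Geminin-positive and at 3.46 to 9.13 in the Geminin-negative libraries, and the other 2 ratios overlap between gates.

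**Figure D3:**
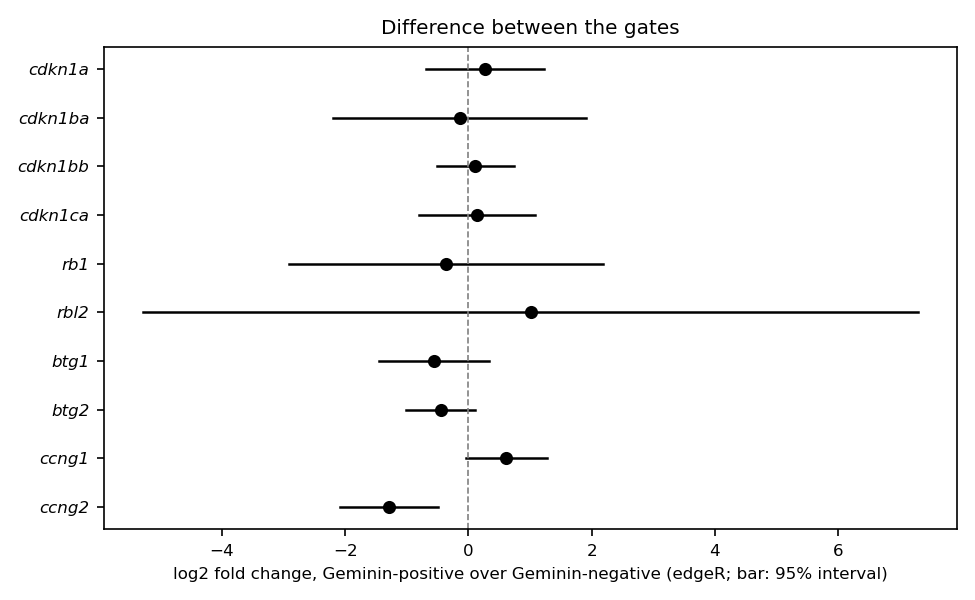
Log2 fold change of each gene, Geminin-positive over Geminin-negative, from edgeR (point) with its 95% interval (bar). The interval of ccng2, -2.08 to -0.49, lies below 0, the other 9 include 0, and that of rbl2 is the widest at -5.28 to 7.30.

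**Figure D4:**
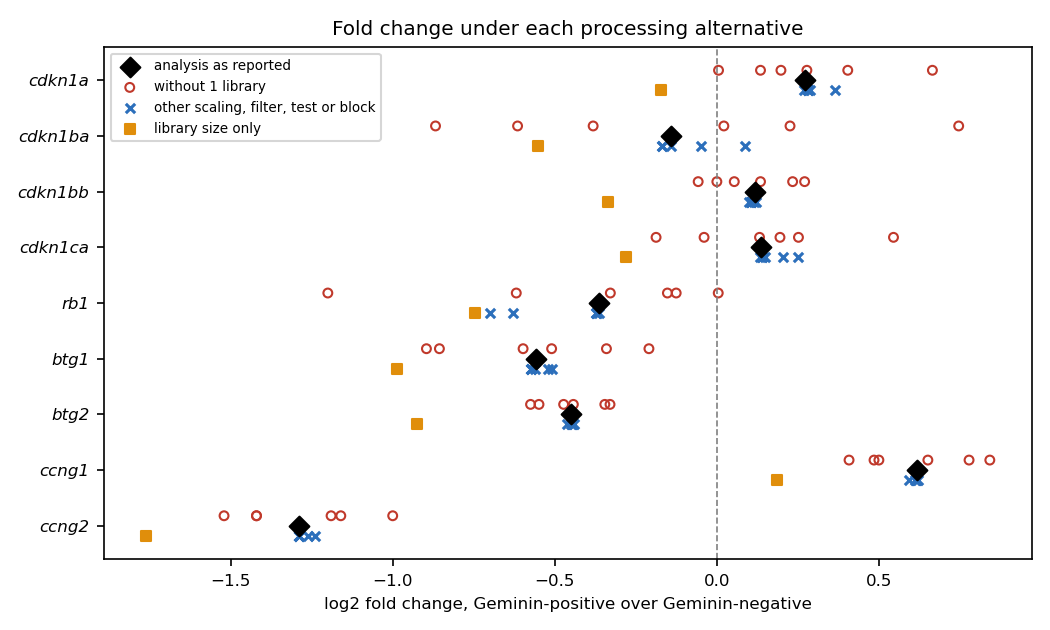
Log2 fold change, Geminin-positive over Geminin-negative (x axis), of 9 of the 10 genes as reported (diamonds), without 1 library (open circles), with library size only (squares) and with other scalings, filters, tests or the replicate block (crosses). The gene rbl2, with -7.64 to 3.21, is left out of the plot; ccng2, btg1 and btg2 stay below 0 and ccng1 above 0 in all 13 alternatives, and the other genes cross 0.

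The summed leukocyte and osteoclast markers were lower in the Geminin-positive libraries. Most tested keratinocyte and dermal fibroblast markers were also below 0 in log2 fold change, but the keratinocyte sums overlapped and the fibroblast sum was higher. The part of these cell types in the values of the 10 genes was not tested. Of 20 leukocyte markers 18 were matched and 14 tested; 5 fell in the Geminin-positive libraries and 0 rose, with coro1a, lck, fcer1g and tyrobp at 0 counts in all 3. The summed level was 102, 230 and 203 CPM in the Geminin-positive against 2230, 2340 and 3160 CPM in the Geminin-negative libraries. Within the Geminin-negative group it was highest in replicate 3, where ccng2 was highest too. Within the Geminin-positive group it was highest in replicate 2, where ccng2 was lowest (40.7 CPM). Of 14 osteoclast markers 11 were matched and 8 tested, of which 2 fell and 0 rose, with acp5b and ocstamp at 0 in the Geminin-positive libraries. Several tested leukocyte and osteoclast markers, such as coro1a, spi1b, cybb and ocstamp, passed the filter on low counts only through the Geminin-negative libraries, which fixed their sign. The matched osteoclast markers summed to 178 to 260 CPM in the Geminin-positive and 1070, 1230 and 1010 CPM in the Geminin-negative libraries. This sum was lowest within the Geminin-negative group in replicate 3, where ccng2 was highest. Keratinocyte markers summed to 740 to 949 CPM in the Geminin-positive and 834, 2040 and 4200 CPM in the Geminin-negative libraries. Like the leukocyte sum, theirs was highest in Geminin-negative replicate 3. Of the 10 tested keratinocyte markers 8 were below and 2 above 0 in log2 fold change, with a list median of -1.36. Dermal fibroblast markers summed to 3040 to 7080 CPM in the Geminin-positive and 1800 to 2280 CPM in the Geminin-negative libraries. That sum rested on lum, a proteoglycan gene, at 2590 to 6622 CPM in the Geminin-positive and 834 to 1454 CPM in the Geminin-negative libraries, whereas 7 of the 10 tested fibroblast markers were below 0 in log2 fold change, with a list median of -1.02. With edgeR, 0 of the 10 tested keratinocyte and 0 of the 10 tested fibroblast markers passed (2 and 6 at an unadjusted p under 0.05). DESeq2 and limma-voom called 1 keratinocyte marker each, and 2 fibroblast markers each.

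Early response and stress genes, which cell dissociation can induce, had mostly lower means in the Geminin-positive libraries, and their part in the values of btg2 was not tested. Of 22 tested genes 21 were below 0 in log2 fold change, the median being -0.41 against -0.01 over all genes. With edgeR 0 of them passed (5 at an unadjusted p under 0.05), with DESeq2 1 and with limma-voom 0. Their summed level was 40700 to 49600 CPM in the Geminin-positive and 47000 to 62300 CPM in the Geminin-negative libraries, so the sums overlapped. Most of the sum was hsp70.3, at 28720 to 38020 CPM in the Geminin-positive and 30560 to 47080 CPM in the Geminin-negative libraries. Gene by gene, 7 of the 22 were lower without overlap and 1 was higher without overlap. Over all genes tested, 10.3% were lower without overlap and 18.4% showed no overlap in either direction. The transcription factor gene junbb had 953, 1208 and 1266 CPM in the Geminin-positive against 1803, 2251 and 2956 CPM in the Geminin-negative libraries (edgeR adjusted p = 0.15), and ier2b, another early response gene, had 71.7 ± 15.0 CPM in the Geminin-positive and 127 ± 8.12 CPM in the Geminin-negative libraries (SD, n = 3 each; edgeR adjusted p = 0.299).

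Genes that work with these regulators were examined in 7 further lists, and with edgeR 0 of the 71 genes tested in them passed (7 at an unadjusted p under 0.05). In each list the 2 genes of smallest p are named, a choice that favours genes without overlap between the gates. Over all genes tested, 18.4% showed no overlap. Other genes with Cdk inhibitor names had a median log2 fold change of 1.66 over 4 tested genes. Among them cdkn3, which despite its name encodes a phosphatase of Cdks, had 28.1, 54.9 and 46.8 CPM in the Geminin-positive against 9.36, 11.5 and 14.1 CPM in the Geminin-negative libraries. The groups did not overlap in cdkn3, the 1 such gene of the 4 tested (log2 fold change 1.89, edgeR adjusted p = 0.123). The p18 gene cdkn2c, an inhibitor of Cdk4 and Cdk6, had 5.72, 7.07 and 1.13 CPM in the Geminin-positive against 1.64, 0 and 0 CPM in the Geminin-negative libraries. The gene cdkn2d had 0 counts in all 6 libraries.

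The E2F, DP and DREAM partners of the pocket proteins had a median of 0.12 over 13 tested genes, 7 of them positive. The DP gene tfdp1b, whose product pairs with E2F, had 13.3 ± 5.65 CPM in the Geminin-positive and 0.603 ± 0.529 CPM in the Geminin-negative libraries (SD, n = 3 each; edgeR adjusted p = 0.407). The repressor gene e2f6 had 16.6 ± 3.91 CPM in the Geminin-positive and 8.18 ± 0.584 CPM in the Geminin-negative libraries (edgeR adjusted p = 0.823). These were the 2 of the 13 tested genes in which the gates did not overlap.

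The Btg and Tob relatives and the Ccr4-Not subunits, listed with poly(A)-binding protein genes, ran with a median of 0.26, 12 of 15 tested genes being positive. Without overlap between the gates 5 of the 15 were higher and 2 lower, against 18.4% of all genes in either direction. The gene tob1a encodes a relative of the Btg proteins that binds the same deadenylase. It had 122, 113 and 178 CPM in the Geminin-positive against 81.0, 79.3 and 21.2 CPM in the Geminin-negative libraries, with no overlap (log2 fold change 1.18, SE 0.49, edgeR adjusted p = 0.481), whereas btg1 and btg2 had negative values. The poly(A)-binding protein gene pabpc1b had 216 ± 81.5 CPM in the Geminin-positive and 90.2 ± 20.4 CPM in the Geminin-negative libraries (edgeR adjusted p = 0.195).

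The list of G1 cyclins and Cdks, which also held myc genes and cdc25b, had a median of 0.19 over 10 tested genes. The cyclin E gene ccne2, a partner of Cdk2, had 19.2, 12.8 and 15.2 CPM in the Geminin-positive against 4.09, 2.61 and 2.97 CPM in the Geminin-negative libraries (log2 fold change 2.29, edgeR adjusted p = 0.348). The Cdk phosphatase gene cdc25b had 118 ± 26.4 CPM in the Geminin-positive and 81.5 ± 16 CPM in the Geminin-negative libraries (edgeR adjusted p = 0.724). These were the 2 of the 10 tested genes without overlap between the gates.

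Genes for the destruction of Cdk inhibitors had a median of 0.43 over 13 tested genes, 9 of them positive and 4 negative. The sliding clamp gene pcna, whose product marks p21 for destruction during replication, had 94.4 ± 32.5 CPM in the Geminin-positive and 50.5 ± 4.99 CPM in the Geminin-negative libraries (edgeR adjusted p = 0.355). The Cdk subunit gene cks2 had 13.9 ± 7.26 CPM in the Geminin-positive and 2.20 ± 1.15 CPM in the Geminin-negative libraries (edgeR adjusted p = 0.411; SD, n = 3 each). Only pcna and cks2, 2 of the 13 tested genes, showed no overlap between the gates.

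The FoxO and growth arrest list had a median of 0.53 over 7 tested genes. The FoxO gene foxo3a had 7.22 ± 2.04 CPM in the Geminin-positive and 3.48 ± 2.54 CPM in the Geminin-negative libraries (edgeR adjusted p = 1.00). Its relative foxo6b had 9.22 ± 4.82 CPM in the Geminin-positive and 3.07 ± 3.55 CPM in the Geminin-negative libraries (edgeR adjusted p = 1.00). The partners of the cyclins G had a median of 0.12 over 9 tested genes. Among them the PP2A scaffold gene ppp2r1ba had 129 ± 45.5 CPM in the Geminin-positive and 86.3 ± 14.3 CPM in the Geminin-negative libraries (edgeR adjusted p = 0.774). The cyclin G associated kinase gene gak had 25.2 ± 5.42 CPM in the Geminin-positive and 37.1 ± 12.3 CPM in the Geminin-negative libraries (edgeR adjusted p = 0.929). In these 2 lists 0 genes reached an unadjusted p under 0.05. Over the 7 lists DESeq2 called 4 of the 71 genes, all higher, near its share of 4.89% over all genes, and limma-voom 0. All 14 tested genes of the G2 and mitosis list, gmnn among them, were above 0 in log2 fold change, the median being 3.73. Several of them, such as ncapd2, passed the filter on low counts only through the Geminin-positive libraries. Their sign was thereby fixed, and the median rests partly on them. With edgeR 1 gene of the list, gmnn, passed, whereas DESeq2 called 7, limma-voom 2 and edgeR with no filter on low counts 11. The condensin gene ncapd2 had 6.67, 13.1 and 27.5 CPM in the Geminin-positive and 0 counts in all Geminin-negative libraries (edgeR adjusted p = 0.0606).

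**Figure D5:**
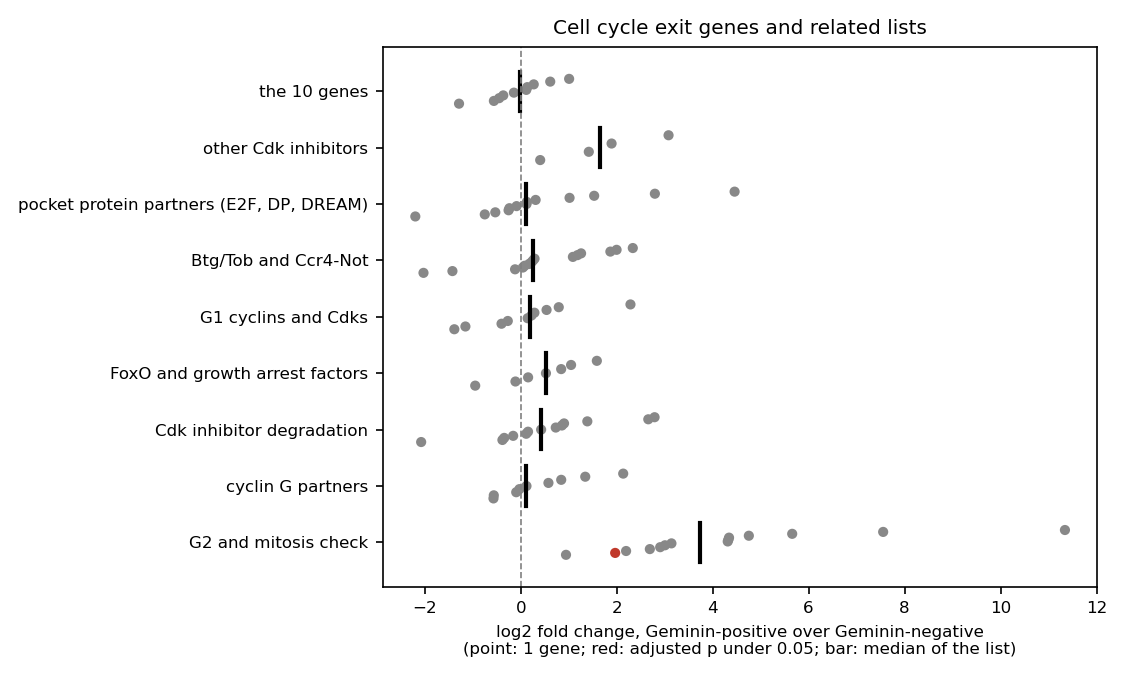
Log2 fold change of each tested gene (point), Geminin-positive over Geminin-negative, in the 10 genes described here, in 7 lists of related genes and in the G2 and mitosis list, with the median of each list as a bar and genes past the adjusted threshold in red. The 10 genes scatter around a median of -0.01, and the G2 and mitosis genes all lie above 0 with a median of 3.73. Several G2 and mitosis genes passed the filter on low counts only through the Geminin-positive libraries, which fixed their sign.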

How the data were processed

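The authors deposited raw read counts per gene for each of the 6 libraries, with exon coordinates and gene length, another measure written by their counting tool, per the file headers. The submitters' processing notes name featureCounts 1.6.1, TopHat2 2.1.1, Trim Galore 0.4.1 and the genome build danRer10. Neither the strand setting nor the annotation release is given in the sources used here, so reads of overlapping genes cannot be told apart. Ensembl identifiers were paired with symbols through a reference table and RefSeq names of assembly GRCz12tu: 16524 genes matched by symbol and chromosome and 3598 by base name and chromosome.

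The test was that of edgeR 4.0.16 under R 4.3.3 (filterByExpr, TMM, robust quasi-likelihood test, Benjamini-Hochberg adjustment over all genes tested), and checked with DESeq2 1.42.0 and limma 3.58.1. The SE is the absolute log2 fold change over the root of F, and intervals use the t distribution. CPM values are mean ± SD. The same test was also run on simulated counts made with the means, dispersions and library sizes of these data. No libraries were duplicates: chi-square per degree of freedom was at least 94.91 in every pair. The biological coefficient of variation was 1.12. Total counts limit the precision, and intervals cover no molecular duplicates.

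The 10 genes and all lists were chosen with earlier results of these data known. The named genes are the 10, gmnn and sp7, for each list the 2 genes of smallest p and those that passed (for the marker lists, sums or shares of counts are given, with few genes named). The genes lum, cdkn1cb, col1a2, spp1, col10a1a, bglap, hsp70.3, spi1b and cybb and genes at 0 counts were named after their values were seen. A further list of related genes is not reported here.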

Additional observations from a re-analysis of the deposited data

How the results depend on the processing

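Over 13 alternatives the count of the 10 genes that passed was 0, except that DESeq2 called 1, ccng2. The number of changed genes over all genes, 78 (16 higher), was 185 (12 higher) with library size only, 557 (156 higher) with no filter, 144 (37 higher) with the stricter filter of 10 CPM in 3 libraries, 628 (194 higher) with DESeq2 and 134 (47 higher) with the replicate block, and 22 to 96 as each library was left out. The signs of btg1, btg2, ccng1 and ccng2 held in all 13. Scaling by library size alone, which moved the median gene to -0.47, turned cdkn1a (-0.17), cdkn1bb (-0.34) and cdkn1ca (-0.28). Limma-voom turned cdkn1ba (0.0871) and rbl2 (-1.05), and the replicate block turned rbl2 (-2.17). With 1 library left out the range was -0.87 to 0.75 for cdkn1ba, -0.0582 to 0.27 for cdkn1bb, -0.19 to 0.54 for cdkn1ca, -1.20 to 0.00 for rb1 (positive at 0.0037 without Geminin-positive replicate 3) and -7.64 to 3.21 for rbl2. The cause was not tested. The genes cdkn1ba and rbl2 were not tested under the stricter filter. Replicate numbers are shared by the titles only: deviations of same-numbered libraries correlated at 0.18, 0.06 and 0.04 for replicates 1 to 3, and Geminin-negative replicate 3 correlated best with Geminin-positive replicate 2. The spread between replicates limits rbl2, rb1 and cdkn1ba most.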

Other observations

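Several of the 10 genes share a chromosome in danRer10. The gap between cdkn1a and btg2 on chromosome 22 is 186699 bases, and that between cdkn1ba and btg1 on chromosome 4 is 2.05 Mb. Farther apart are rb1 and ccng2 on chromosome 21 (17.2 Mb) and cdkn1bb and rbl2 on chromosome 25 (33.3 Mb). Within each gate cdkn1ba and btg1 had the same order of libraries. With 3 libraries per gate such orders can match by chance, and a link to position was not tested. The closest pair, cdkn1a and btg2, did not share an order in both gates. In the Geminin-negative group cdkn1a was highest in replicate 2 at 56.8 CPM, as btg2 was at 509 CPM. In the Geminin-positive group cdkn1a was highest in replicate 3 and btg2 in replicate 2.

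The 3 genes whose pattern over the 6 libraries was nearest to that of ccng2, by Euclidean distance of log2 CPM centred per gene, were cd99 (distance 0.45), b3gnt2b (0.455) and mob3a (0.51). The cell surface glycoprotein gene cd99 had 513 ± 62.2 CPM in the Geminin-positive and 1113 ± 479 CPM in the Geminin-negative libraries (SD, n = 3 each; log2 fold change -1.12, edgeR adjusted p = 0.22). The glycosyltransferase gene b3gnt2b had 6.56 ± 1.68 CPM in the Geminin-positive and 19.3 ± 4.24 CPM in the Geminin-negative libraries, and mob3a had 20.5 ± 5.82 CPM in the Geminin-positive and 42 ± 15.5 CPM in the Geminin-negative libraries. None of the 3 passed the test with edgeR. They were picked for likeness to ccng2 in these same libraries, so their lower Geminin-positive levels follow from that choice.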
